A study of Drosophila melanogaster with 7 samples.

Results

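The genes by which a fruit fly embryo counts its X chromosomes, and the switch gene Sex-lethal (Sxl) that reads the count, were examined in nascent RNA of cycle 14 Drosophila melanogaster embryos with and without maternal H3K9 methyltransferases. The 8 genes were taken by their symbols, sisA, upd1, Sxl, dpn, da, her, emc and gro, each matched to 1 FlyBase identifier in the count tables, out of 17753 genes in all. They were measured by Gro-seq, in which nuclei extend RNAs already engaged by polymerase with a biotin-tagged nucleotide, so that the reads report ongoing transcription and not the stored maternal RNA. Triple mutant (TM) embryos came from parents that were homozygous knockouts for Su(var)3-9, with short hairpin RNAs against dSetDB1 (egg) and G9a under a maternal tubulin Gal4 driver on the second chromosome, so that the enzymes were withheld from the egg during late oogenesis. Control (ctr) embryos, labelled wildtype, came by the study's methods from a TRiP control line. The sample descriptions write both groups as crosses with the same second parent, coded NI746, whose genotype they do not give. There were 4 TM and 3 ctr libraries, each of pooled embryos staged by hand at cycle 14. The labels give no sex for the embryos, so that male and female embryos cannot be told apart within a library, and neither can a change per nucleus from a change in the share of nuclei that transcribe a gene.

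In flies, sex follows from the number of X chromosomes. X-linked signal elements, among them sisA (a bZIP protein), scute (sc, a bHLH activator), runt (run) and upd1 (the JAK/STAT ligand once called sisC), are transcribed before and during the blastoderm stage, and XX embryos make more of their products than XY embryos. These products act with maternal Daughterless (Da) to open the establishment promoter of Sxl, Pe, in females, while Deadpan (Dpn), Groucho (Gro) and Extramacrochaetae (Emc) restrain it. Sxl encodes an RNA-binding protein that later keeps its own transcripts, made from the maintenance promoter Pm in both sexes, and those of transformer and msl-2, in the female mode.

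The libraries held 18889493 to 22200059 gene counts in TM and 19547254 to 21298129 in ctr. After genes averaging under 10 counts had been set aside, 10917 were tested, of which 486 were higher in TM (4.45% of those tested) and 697 were lower (6.38%) at an adjusted p under 0.05 in edgeR's quasi-likelihood test with Benjamini-Hochberg adjustment over all genes tested. Of the genes called, 41.1% were higher in TM after TMM scaling and 55.8% when only library totals were used. The targeted genes gave no check of the labels in these libraries. The study itself reports a lack of the enzymes in TM, from mass spectrometry, RT-qPCR and Western blot. Su(var)3-9 had 0 gene-body counts in all 7 libraries, because it lies inside eIF2gamma on the same strand and reads over both genes were not counted. Exon counts of Su(var)3-9 were 4643, 4434, 3778 and 3818 in TM and 4757, 4572 and 4064 in ctr (log2 fold change -0.20, SE 0.08, adjusted p = 0.18, edgeR). After scaling, all 4 TM libraries lay below the 3 ctr libraries. The libraries labelled triple mutant thus showed a small drop that did not pass the threshold, and not a loss of its transcription. Unspliced eIF2gamma RNA covers the same bases, and its part in these counts was not tested. Nascent zygotic transcripts of egg (31.5 to 45.2 CPM, that is counts scaled to library size, in TM, 28.1 to 36.6 in ctr) and G9a (117 to 159 CPM in TM, 143 to 148 in ctr) do not report a maternal hairpin knockdown. Genes that mark the blastoderm (sna, twi, eve, ftz, Kr, kni and zen) summed to 3459 to 4984 CPM in TM and 4330 to 4759 CPM in ctr, all above 0 in every library, whereas 4 follicle cell genes summed to 6.96 to 26.9 CPM in TM and 12.3 to 36.7 CPM in ctr, with Vm32E at 0 gene-body counts throughout and at 0 to 22 exon counts. The 5 genes of a later muscle list summed to 64.0 to 95.3 CPM in TM and 43.0 to 54.9 CPM in ctr, of which bt passed the test (adjusted p = 0.010, edgeR). The largest part of each sum was bt, a gene of chromosome 4, with 46.7 to 68.7 CPM in TM and 22.1 to 43.3 CPM in ctr. The sums thus follow mainly this 1 gene. A further muscle gene, up, was higher in every TM library, at 3.45 to 6.73 CPM against 1.16 to 2.03 CPM in ctr. It fell just short of the threshold (log2 fold change 1.76, SE 0.56, adjusted p = 0.055, edgeR).

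The 3 X-linked genes carry the X signal or receive it, and the sequences before their starts are shown because the early activation of X-counting genes by Zelda and the bHLH proteins acts through such elements. The 250 bases upstream of each start are given 5′ to 3′ on the strand of the gene (all on the minus strand), read from the RefSeq genome of Release 6, on which every one of the 8 genes had the same coordinates as in the count table. Capitals mark the Zelda core CAGGTA, the E box CANNTG bound by bHLH dimers, and the STAT motif TTCNNNGAA, each searched on both strands. Overlap between different motifs was found in none of these windows. The annotation gives Sxl 25 transcripts, 18 of them starting at the outer end, taken here as Pm, and 4 starting 5170 bases inside the gene, taken here as Pe. The windows lie at chrX:11322358-11322607 for sisA, chrX:18309292-18309541 for upd1, chrX:7092884-7093133 for Sxl Pe and chrX:7098054-7098303 for Sxl Pm, and none holds a base of an annotated exon.
sisA: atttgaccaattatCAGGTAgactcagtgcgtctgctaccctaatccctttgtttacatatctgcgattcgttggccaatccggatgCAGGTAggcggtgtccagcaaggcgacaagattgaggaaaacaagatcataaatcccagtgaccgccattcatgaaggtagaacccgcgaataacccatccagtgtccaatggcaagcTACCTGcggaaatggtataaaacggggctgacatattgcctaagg
upd1: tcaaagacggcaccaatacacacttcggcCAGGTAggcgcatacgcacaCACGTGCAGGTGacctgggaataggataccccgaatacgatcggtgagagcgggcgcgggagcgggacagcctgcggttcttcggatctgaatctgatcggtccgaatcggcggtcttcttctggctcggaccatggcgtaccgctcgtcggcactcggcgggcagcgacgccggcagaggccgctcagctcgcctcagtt
Sxl Pe: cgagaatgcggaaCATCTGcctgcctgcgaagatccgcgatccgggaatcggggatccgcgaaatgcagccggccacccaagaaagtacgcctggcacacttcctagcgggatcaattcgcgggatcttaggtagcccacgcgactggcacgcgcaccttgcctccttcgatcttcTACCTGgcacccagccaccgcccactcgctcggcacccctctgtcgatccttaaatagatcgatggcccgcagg
Sxl Pm: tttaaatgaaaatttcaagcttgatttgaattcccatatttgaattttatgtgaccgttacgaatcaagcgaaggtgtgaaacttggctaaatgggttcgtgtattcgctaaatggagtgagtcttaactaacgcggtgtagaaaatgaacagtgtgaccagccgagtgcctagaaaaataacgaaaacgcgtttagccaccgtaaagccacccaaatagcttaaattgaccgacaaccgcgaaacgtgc

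Over the 300 bases searched (250 before and 50 after each start), sisA held 3 CAGGTA motifs, at positions -236, -163 and -45 from its start, and no E box. Windows with at least 1 CAGGTA made up 6.35% of 17563 gene starts on the main chromosome arms, and windows with 3 or more made up 0.125%. The upd1 window held 1 CAGGTA at -221 and a pair of adjoining E boxes at -201 and -195. At Sxl the motif was found once before Pe, at -74, where an E box stood at -237, and neither motif was found at Pm. E boxes are common, standing in 76.8% of gene starts, so that their presence at upd1, Sxl Pe, da and emc does not set these windows apart. The windows of sisA, Sxl Pm, her and gro held none. The STAT motif, found at 9.14% of gene starts, stood in the gro window alone among the windows searched, and gro also held a CAGGTA at +31. The windows of da, her and emc held no CAGGTA, and that of dpn was not searched. These matches describe letters in the windows and were not tested as binding sites.

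**Figure D1:**
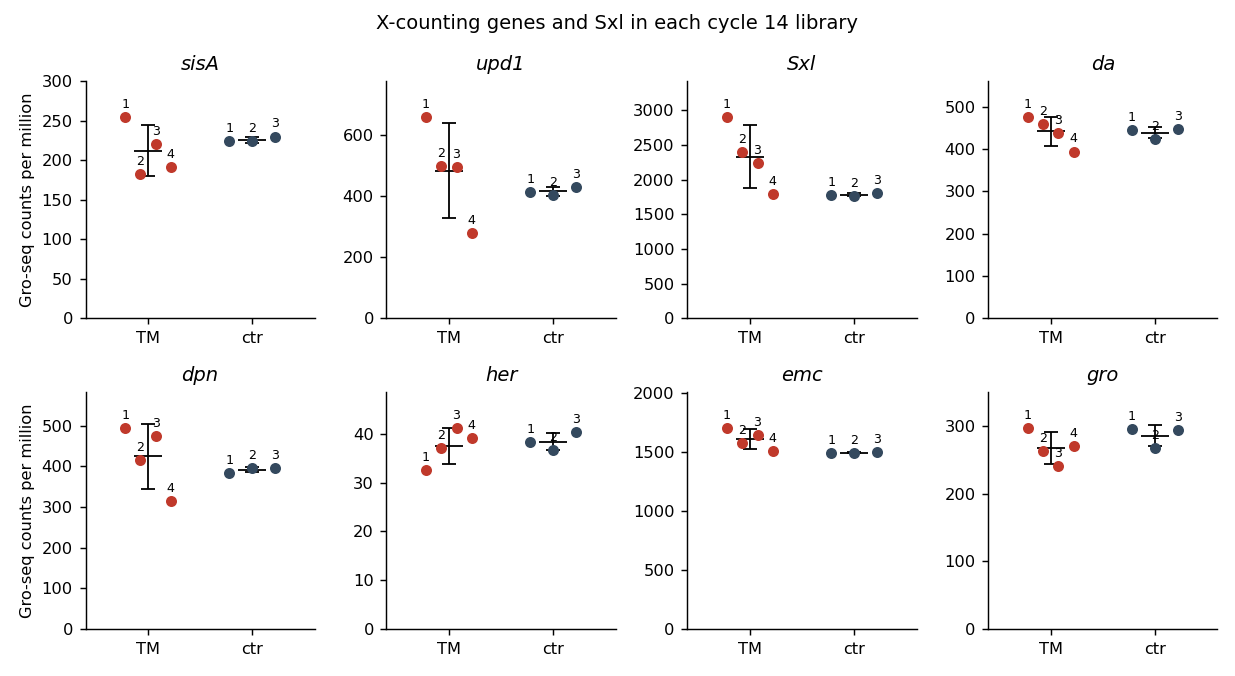
Gro-seq level of each gene in CPM (y axis from 0) in the 4 TM libraries (red, left) and the 3 ctr libraries (dark blue, right); digits are replicate numbers and black marks are the mean ± SD. The ctr libraries lie close together for every gene, while Sxl spreads between 1790 and 2899 CPM and upd1 between 280 and 659 CPM in TM.

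None of the 8 genes passed the threshold between TM and ctr, in a comparison where 4.45% of genes were called higher and 6.38% lower. A single member, Sxl, had an unadjusted p under 0.05 in edgeR, as did 24% of all genes tested, and DESeq2 on the same counts called 1 member, again Sxl. The log2 fold changes, TM over ctr, were positive for 5 of the 8 and ran from -0.09 to 0.39, with a median of 0.06, beside a median of 0.03 over all genes tested. The groups did not overlap for 1 member, emc, whose TM libraries were all higher (10.9% of all genes tested had TM higher without overlap), and for 0 members with TM lower (12.5% of all genes tested). Leaving out TM replicate 4 raised the number called to 3 (Sxl, upd1 and dpn, all higher in TM), at a setting where 6.63% of all genes tested were called higher, and 1667 genes were called in all against 1183 with every library.

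Sxl (FBgn0264270; chrX:7074550-7098053, minus strand) was among the most transcribed genes of these embryos, ranking 34 of 10917 by mean CPM. It had 2899, 2399, 2241 and 1790 CPM in TM replicates 1 to 4, against 1781, 1757 and 1804 CPM in ctr replicates 1 to 3. Thus 3 of the 4 TM libraries lay above every ctr library, and TM replicate 4 lay among them. The log2 fold change was 0.39 (SE 0.12; 95% interval 0.13 to 0.65), a fold of 1.31, with an adjusted p of 0.055 in edgeR, just short of the threshold, and 22.9% of the genes tested had a larger rise. The call depended on the setting. The adjusted p was 0.012 in DESeq2, 0.018 with library totals, 0.048 with scaling factors from autosomal genes and 0.00018 in edgeR without TM replicate 4 (log2 fold change 0.50), whereas without any other single library it was 0.10 to 0.19.

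Exon counts gave a larger difference for Sxl. In the second deposited table, which counts reads over annotated exons and includes reads that map to several places, Sxl had 25219, 20467, 17863 and 13486 counts in TM and 12458, 12506 and 12062 in ctr. Its log2 fold change there was 0.53 (SE 0.14) with an adjusted p of 0.029 in edgeR, and after scaling all 4 TM libraries lay above the 3 ctr libraries. The share of all genes with that separation in exon counts is not given here, and in gene bodies it was 10.9%. Over all genes, 3.11% were called higher in TM by exon counts and 3.85% lower, and Sxl was the only member called. Exon counts came to 39.5, 38.8, 41.7 and 37.7 per 100 gene-body counts of Sxl in TM, against 36.4, 34.0 and 35.2 in ctr. The same ratio over all genes was also higher in TM, at 94.3 to 96.2 per 100 against 90.4 to 91.6 in ctr. Expressed as a percentage of the library's ratio over all genes, that of Sxl was 39.2 to 43.4 in TM and 37.6 to 40.2 in ctr, so that the groups overlapped. Neither table separates Pe from Pm transcripts, whose exons and bodies largely coincide.

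**Figure D2:**
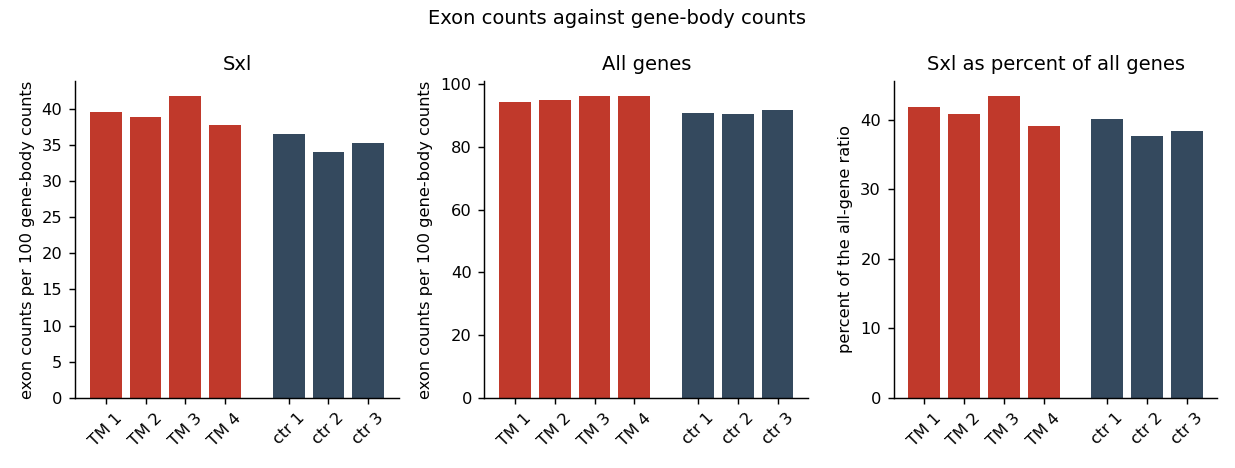
Exon counts per 100 gene-body counts (y axes from 0) in each library for Sxl (left), for all genes (middle), and for Sxl as a percentage of the ratio over all genes (right), with TM libraries in red and ctr libraries in dark blue. The Sxl ratio is 37.7 to 41.7 in TM and 34.0 to 36.4 in ctr, and the scaled ratio overlaps between the groups.

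Of the X-linked signal elements, upd1 had a wide range within TM, and sisA differed from it in which TM libraries were high or low. upd1 (FBgn0004956; chrX:18305354-18309291, minus strand) had 659, 499, 494 and 280 CPM in TM and 415, 403 and 431 CPM in ctr. TM replicates 1 to 3 were above every ctr library and TM replicate 4 was below them all, a 2.35-fold range within TM against 1.07-fold within ctr. The log2 fold change was 0.21 (SE 0.27; 95% interval -0.44 to 0.87; adjusted p = 0.71, edgeR), and without TM replicate 4 it was 0.40 with an adjusted p of 0.0072. The library left out thus decided whether upd1 was called.

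sisA (FBgn0003411; chrX:11321579-11322357, minus strand), a gene of 779 bases, had 254, 182, 221 and 191 CPM in TM, against 224, 224 and 230 CPM in ctr. One TM library lay above the ctr range and 3 below it. Its log2 fold change was -0.09 (SE 0.10; 95% interval -0.31 to 0.13; adjusted p = 0.67, edgeR), an interval of 0.806-fold to 1.09-fold of ctr. The direction was negative under each of 17 alternatives, none of which passed the threshold, with log2 fold changes of -0.21 to -0.02.

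The other signal elements on the X were scute and runt. sc, the proneural bHLH partner of Da, had 111, 86.7, 66.8 and 58.4 CPM in TM and 72.2, 48.4 and 46.8 CPM in ctr (log2 fold change 0.53, SE 0.23, adjusted p = 0.20, edgeR). run, the Runt-domain factor, had 620, 521, 636 and 515 CPM in TM and 637, 651 and 660 CPM in ctr, all 4 TM libraries being lower (log2 fold change -0.18, SE 0.09, adjusted p = 0.24, edgeR), although TM replicate 3 fell short of the lowest ctr library by less than 1 CPM.

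**Figure D3:**
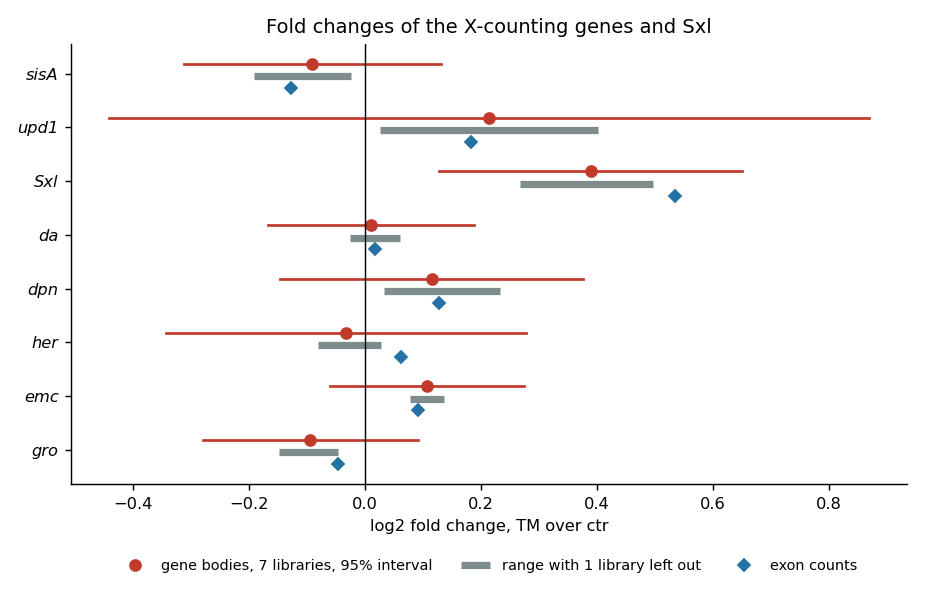
Log2 fold changes, TM over ctr (x axis), of the 8 genes. Red points and lines are the gene-body estimates with 95% intervals from all 7 libraries, grey bars the range when 1 library is left out, and blue diamonds the exon counts; Sxl is at 0.39 in gene bodies and 0.53 in exons, and its interval alone lies wholly above 0.

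Turning to the factors that meet the X signal, the autosomal repressor gene dpn, a Hairy-related bHLH gene, shared its highest and lowest TM library with Sxl and upd1. dpn (FBgn0010109; chr2R:8228971-8232330, minus strand) had 494, 414, 474 and 315 CPM in TM, against 384, 396 and 395 CPM in ctr. Its TM libraries lay on both sides of the ctr libraries, with a log2 fold change of 0.12 (SE 0.12; 95% interval -0.15 to 0.38; adjusted p = 0.63, edgeR). Without TM replicate 4 it was 0.23 with an adjusted p of 0.039. Of the length of dpn, 30.3% is shared with 2 stable intronic sequence RNA genes on the same strand, and reads over both were not counted.

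da, the maternal bHLH partner of sc, had 476, 460, 439 and 394 CPM in TM and 446, 423 and 447 CPM in ctr. The groups overlapped, with a log2 fold change of 0.01 (SE 0.08; 95% interval -0.17 to 0.19; adjusted p = 0.96, edgeR). her, a zinc finger gene whose product is supplied by the mother, was the least transcribed member, at 32.7, 37.1, 41.2 and 39.1 CPM in TM and 38.3, 36.6 and 40.3 CPM in ctr. Its log2 fold change was -0.03 (SE 0.15; 95% interval -0.34 to 0.28; adjusted p = 0.93, edgeR).

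emc, which encodes an HLH protein without a basic region that ties up Da and Sc, was the member with separate groups. It had 1701, 1574, 1641 and 1504 CPM in TM, against 1489, 1486 and 1495 CPM in ctr. The lowest TM library exceeded the highest ctr library by less than 1%, a gap that was not set against counting error. The log2 fold change was 0.11 (SE 0.08; 95% interval -0.06 to 0.28; adjusted p = 0.45, edgeR). In exon counts the groups of emc overlapped. gro, the corepressor recruited by Hairy-related proteins, had 298, 264, 241 and 271 CPM in TM and 296, 268 and 295 CPM in ctr (log2 fold change -0.09, SE 0.09, adjusted p = 0.57, edgeR), with overlapping groups.

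The members varied more among the TM libraries than among the ctr libraries. Each of the 8 genes had a wider fold range in TM than in ctr, as did 68.3% of the 9581 genes tested with counts in every library. A range over 4 TM libraries tends to be wider than 1 over 3 ctr libraries, and this was not corrected for. TM replicate 1 was the highest TM library for 7 of the 8 (28.1% of all genes tested), the exception being her, and TM replicate 4 was the lowest for 5 (27.4%), namely upd1, Sxl, dpn, da and emc. TM replicates 1 and 4 were the opposite ends for those same 5 members and for 13.3% of all genes tested.

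Within TM, the genes of cellularization moved with these libraries. Of the 6 listed (nullo, bnk, slam, Sry-alpha, halo and frs), which are transcribed in the embryo around the start of cellularization, the 5 tested did not pass the threshold. nullo, bnk, slam and Sry-alpha act in the membrane furrows of the blastoderm, halo in lipid droplet transport and frs in the mitotic pause. Sry-alpha had 0 gene-body counts, since it has the same coordinates as Sry-beta in the annotation, but 26073, 18468, 16033 and 8118 exon counts in TM and 12049, 12040 and 13747 in ctr. The summed gene-body level of the others was 8413, 5930, 5725 and 2717 CPM in TM replicates 1 to 4, against 3976, 3511 and 4699 CPM in ctr. slam, the most abundant of them, had 5141 CPM in TM replicate 1 and 1352 CPM in TM replicate 4, against 1990 to 2818 CPM in ctr. The order of the TM libraries by this sum was that of Sxl and upd1. The share of all genes with that order is not given here. The ctr libraries also shared 1 order, but Sxl and upd1 hardly moved there. In ctr replicates 1 to 3 the mean log2 CPM of the 5 tested genes was 8.19, 7.78 and 8.45. Relative to its ctr mean, log2 CPM ran from -0.02 to 0.02 for Sxl and from -0.05 to 0.05 for upd1 in ctr. When the mean log2 CPM of the 5 tested genes was added to the fit, a step taken only once the data had been seen, the log2 fold change was 0.16 for Sxl (adjusted p = 0.12, edgeR), -0.23 for upd1 (0.071) and -0.10 for dpn (0.53). Whether stage within cycle 14 has a part in the values of Sxl, upd1 and dpn was not tested.

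**Figure D4:**
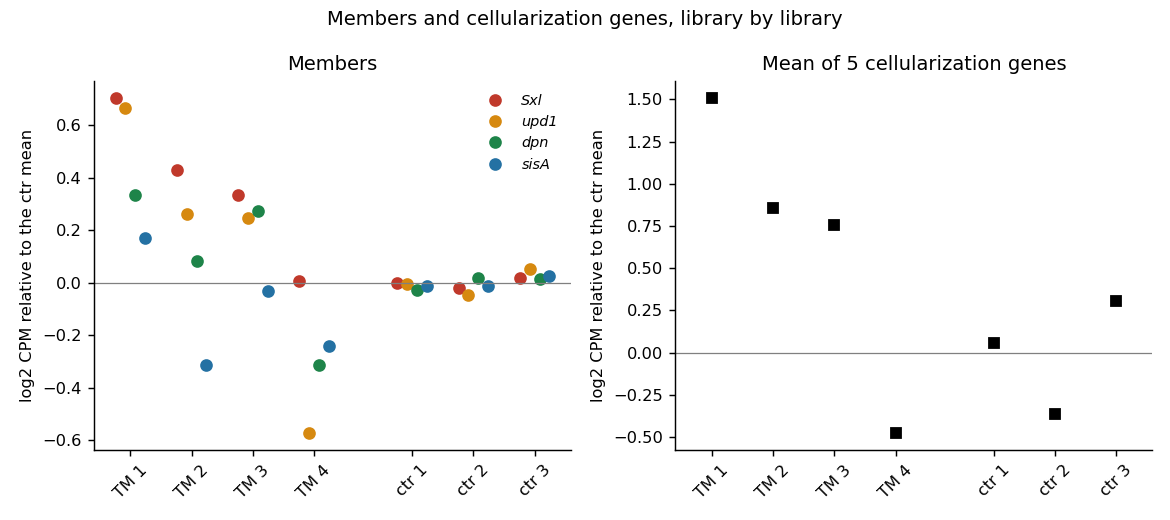
Log2 CPM relative to the mean of the ctr libraries (y axes) in each library for Sxl, upd1, dpn and sisA (left) and for the mean of 5 cellularization genes (right). TM replicate 1 is highest and TM replicate 4 lowest for Sxl, upd1, dpn and the cellularization genes, and the ctr libraries stay within about 0.05 of their mean for Sxl, upd1, dpn and sisA.

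The genes whose pattern over the 7 libraries lay closest to each member were found by the root mean square difference of centred log2 CPM, among 7061 genes with a mean of at least 10 CPM. For Sxl these were Grasp65 (a Golgi stacking protein; difference 0.05), mfrn (the mitochondrial iron carrier; 0.07) and Rhau (a DEAH-box helicase; 0.07), beside a median of 0.34 over all genes. upd1 was closest to tutl (an immunoglobulin-domain membrane protein; 0.06), CG8654 (0.07) and Elba2 (a boundary element factor of the early embryo; 0.08), and dpn to the gap gene gt (0.04), the proneural gene ato (0.06) and the proteasome subunit gene Rpn9 (0.06). For sisA the closest were CG1074 (0.03), CG8086 (0.04) and asRNA:CR44995 (0.06). None of these 12 genes passed the threshold, and the lowest adjusted p was that of mfrn (0.065, edgeR).

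Per length of gene body, the members spanned a wide range of transcription. In TM, emc stood first at 392.1 ± 20.7 CPM per kb, followed by sisA at 272 ± 42, dpn at 126 ± 24, upd1 at 123 ± 39, Sxl at 99.2 ± 19.5, da at 86.3 ± 6.9, gro at 32.8 ± 2.9 and her at 14.97 ± 1.46 (SD, n = 4). Neighbours from dpn down to da overlapped in their ranges, and the rest did not. The dpn value is too low, since it divides by the full length while reads over the 30.3% shared with other genes were not counted. Its closeness to upd1 rests on that length. In ctr the order was the same except that da, at 85.6 ± 2.6, stood above Sxl, at 75.8 ± 1.0 CPM per kb (SD, n = 3), and no neighbours in the order overlapped. Sxl, 23504 bases long, was thus the first member by CPM and stood in the middle of the order per length.

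**Figure D5:**
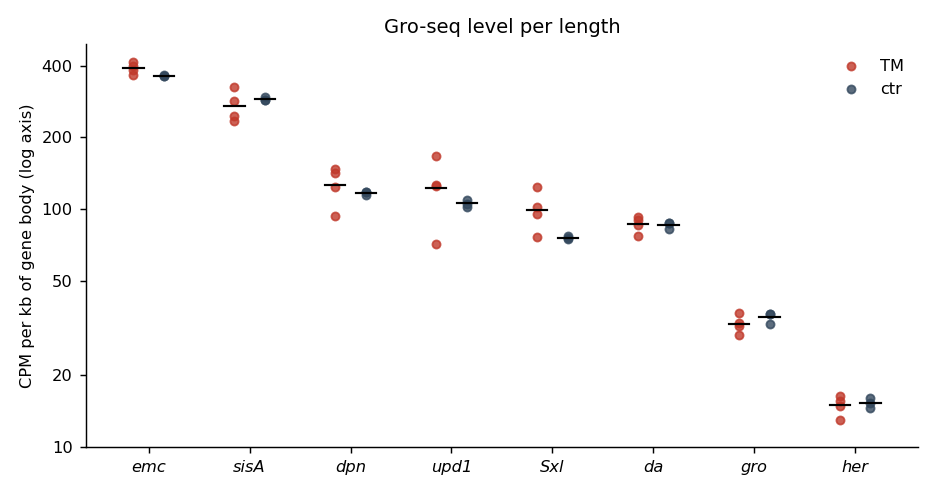
CPM per kb of gene body (log axis) of the 8 genes, ordered by the TM mean, with TM libraries in red (left) and ctr libraries in dark blue (right) and the mean as a black line. emc and sisA stand above the rest and gro and her below, in both groups. The level of dpn is divided by its full length, part of which was not counted.

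The wider pathway showed no call either. Of 6 further genes that act in X counting or Sxl activation (sc, run, Stat92E, hop, dome and zld) 0 passed the threshold in either direction. Another 15 genes act with Sxl in splicing, are its targets or lie further down the sex determination pathway (snf, vir, fl(2)d, nito, Mettl3, Mettl14, Ythdc1, Hakai, flacc, tra, tra2, dsx, ix, fru and msl-2), and again 0 passed. In edgeR 2 of these 21 had an unadjusted p under 0.05 (sc and Ythdc1), against 24% of all genes tested, and DESeq2 called 0. The median log2 fold change over the 21 was 0.01, with 11 positive. Groups did not overlap for run and Ythdc1, both with TM lower, a separation that 12.5% of all genes tested had. Ythdc1, the nuclear m6A reader of the Sxl splicing pathway, had 126, 131, 141 and 128 CPM in TM and 162, 149 and 151 CPM in ctr (log2 fold change -0.23, SE 0.09, adjusted p = 0.11, edgeR). The dosage compensation gene msl-2, which Sxl represses in females, had a log2 fold change of 0.03 (SE 0.12; adjusted p = 0.91, edgeR), and transformer (tra), the splicing target of Sxl, one of 0.12 (SE 0.14; adjusted p = 0.66, edgeR). Gene-body counts report transcription, so that a change in the splicing or translation of msl-2 and tra RNA cannot be read from them.

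The share of gene counts on the X chromosome differed between the groups by less than the spread within them. It was 13.3% ± 0.19 in TM and 13.4% ± 0.14 in ctr (SD, n = 4 and 3), a difference of -0.08 percentage points (exact two-sided permutation test over 35 splits, p = 0.60, the smallest possible being 0.029). The 1760 X-linked genes tested had a median log2 fold change of 0.04, against 0.02 for 9092 autosomal genes. Nor did the genes beside the members pass the threshold. Of the 16 nearest tested neighbours, 8 had a positive log2 fold change and the lowest adjusted p was 0.34 (edgeR). Beside Sxl, CG4615 lay 524 bases upstream with a log2 fold change of -0.17 (SE 0.14), and beside upd1, lncRNA:CR45608, 1210 bases upstream, had one of 0.57 (SE 0.43) at 9.06 CPM in TM and 6.11 CPM in ctr.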

How the data were processed

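Nascent RNA of 4 TM and 3 ctr samples was analysed from 2 tables deposited by the authors. The first holds raw counts per gene body that the authors made with featureCounts 1.5.3 (Ensembl release 96, dm6, strand-specific, mapping quality of at least 3, reads over 2 genes left out) from Bowtie2 2.3.3.1 alignments. The second holds estimated counts per gene over exons and per repeat family, which the authors made with TEtranscripts, with reads that map to several places included; all values were whole, and none needed rounding. Libraries held 18889493 to 22200059 gene counts. These totals do not set the counting error of single genes, which was not computed. In ctr the spread between libraries was small for some members, as for emc (SD 4.77 CPM on a mean of 1490 CPM).

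Genes averaging 10 counts or more were fitted with edgeR 4.0.16 (R 4.3.3; TMM, robust quasi-likelihood test, condition alone, Benjamini-Hochberg over all genes, threshold 0.05). CPM are scaled by TMM. Log2 CPM used a prior count of 2. DESeq2 1.42.0, other filters and scalings, the exon counts and leaving out each library were alternatives. The script was tested on simulated data. Symbols came from a reference table (17625 of 17753 genes named; 2 list members by synonym). The replicates are biological by the study's methods. No 2 libraries of a group agreed within counting noise.

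The members, gene lists, tests and named genes (all members; list genes past the threshold, sc and run; closest patterns; nearest neighbours) were chosen with earlier results of these data known. Ythdc1, msl-2, tra and the library order were singled out after their values were seen. Motif shares used all gene starts on the main arms. Proteins were not used here.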

Additional observations from a re-analysis of the deposited data

How the results depend on the processing

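Of 17 alternatives each, emc, gro and sisA kept their direction and stayed unpassed in all, with log2 fold changes of 0.05 to 0.17 for emc, -0.15 to -0.03 for gro and -0.21 to -0.02 for sisA. The log2 fold change of Sxl was positive in all 17. It passed the threshold at 0.40 in DESeq2, 0.36 in DESeq2 with shrunken values, 0.45 with library totals, 0.39 with autosomal TMM and 0.53 in exon counts, each of which called 1 member, and leaving out 1 library gave 0.27 to 0.50. Leaving out 1 library gave 0.027 to 0.40 for upd1, 0.033 to 0.23 for dpn, -0.026 to 0.062 for da and -0.080 to 0.028 for her, with 0 to 3 members and 0 to 1 pathway genes called (flacc, without TM replicate 4). The sign of her turned at 0.030 with library totals and 0.063 in exon counts. With the cellularization covariate, added after seeing the data, upd1 (-0.23), dpn (-0.10), da (-0.083) and her (0.017) turned sign and 2 pathway genes were called, run and nito, both lower in TM. The causes were not tested.

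Replicate numbers are shared by the groups. The deviations of same-numbered libraries correlated at 0.02, -0.04 and -0.05 over 8027 genes, and those of differently numbered libraries at -0.10 to 0.10. A pairing by number was thus not seen, and whether the numbers mark a shared collection was not tested. With a replicate block, in which TM replicate 4 has no partner and does not bear on the estimate, 2 members were called, Sxl (0.49) and upd1 (0.39), and 2 pathway genes, sc (0.66) and flacc (0.29). Over all genes 1526 were called with the block, against 1183 without it, 1483 in DESeq2 and 688 to 1667 with 1 library left out. The X share difference was -0.15 to -0.01 percentage points with 1 library left out. With 3 ctr libraries of small spread and 4 TM libraries of wide spread, changes under about the half-width of each interval would not reach an unadjusted p of 0.05. The adjusted threshold asks for larger changes. Sxl, at 0.39 with an interval of 0.13 to 0.65, did not pass it in the main fit.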
